A study of Mus musculus with 8 samples.

Results

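The genes of the interferon response and of antigen presentation were followed in liver and subcutaneous adipose tissue of mice lacking MKRN1, an E3 ubiquitin ligase, and of their wild-type (WT) littermates. The group was a list of 34 gene symbols, taken from 24462 in the files, and every one of the 34 was found in all 8 libraries. It was split by role into 23 interferon-stimulated genes, 6 genes of the MHC class I pathway and 5 genes of the MHC class II pathway. The 4 groups of libraries were WT liver, MKRN1-null liver, WT adipose tissue and MKRN1-null adipose tissue, with 2 libraries each. The labels do not say whether a liver and a fat library came from the same mouse. All mice were male C57BL/6 that had been started on a high-fat diet (HFD) when 6 weeks old. The labels give 19 weeks of diet and an age of 24 weeks. The null line was constitutive and had been backcrossed to C57BL/6, so loss of MKRN1 was not limited to one cell type. Controls were on the same HFD, and no chow-fed animals were among the samples. Poly(A) RNA was sequenced and levels are given in FPKM, fragments per length of transcript and per mapped fragment of the library, summed over the transcripts of a gene. The question was how the level of these genes differed between null and WT animals within each tissue.

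Interferons are secreted by cells that detect viral nucleic acid or by activated lymphocytes. Genes that respond to type I interferons often carry an interferon-stimulated response element (ISRE), and those that respond to interferon gamma a gamma-activated site (GAS). The target genes encode antiviral proteins and also much of the class I pathway, in which peptides pumped into the endoplasmic reticulum by TAP1 and TAP2 are loaded with the help of tapasin onto a heavy chain paired with β2-microglobulin, in nearly every cell. The class II pathway is restricted mainly to dendritic cells, macrophages and B cells. There the α and β chains are chaperoned by the invariant chain CD74, and their genes share an upstream S-X-Y promoter module that is switched on through the coactivator CIITA. Obese fat and fatty liver are known to gain macrophages and dendritic cells.

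The start regions of 5 members are shown, those of H2-Aa, H2-Eb1, H2-D1 and Irf8 because these genes lead the results in liver, and that of Isg15 for comparison. Each is the sense strand, 5′ to 3′, from 250 bases before to 50 bases after the RefSeq start (GRCm38.p6, of which mm10 is the other common name), and capitals mark matches to the 3 motifs searched. These were the Y box CTGATTGG, the GAS TTCNNNGAA and the ISRE written as GAAA, any 2 bases, then GAAA, each on both strands. The H2-Aa window (α chain of I-A, chr17:34287774-34288073, minus strand) holds 1 Y box, centred 47 bases before the start. The start used for it lies 52 bases upstream of that in the deposited transcript table.
H2-Aa: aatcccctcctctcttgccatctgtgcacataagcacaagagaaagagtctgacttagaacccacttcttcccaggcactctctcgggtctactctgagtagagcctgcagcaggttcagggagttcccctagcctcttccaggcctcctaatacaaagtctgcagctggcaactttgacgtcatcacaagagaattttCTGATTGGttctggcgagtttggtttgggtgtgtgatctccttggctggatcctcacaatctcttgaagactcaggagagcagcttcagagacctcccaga
The H2-Eb1 window (β chain of I-E, chr17:34305617-34305916, plus strand) holds 1 Y box, centred 58 bases before the start.
H2-Eb1: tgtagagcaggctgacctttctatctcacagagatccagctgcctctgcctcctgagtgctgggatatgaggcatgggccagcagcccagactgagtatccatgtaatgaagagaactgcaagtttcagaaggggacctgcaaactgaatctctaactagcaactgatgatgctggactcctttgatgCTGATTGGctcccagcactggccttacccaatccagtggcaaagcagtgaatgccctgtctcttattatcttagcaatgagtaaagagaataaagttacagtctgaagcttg
The H2-D1 window (class I heavy chain, chr17:35262844-35263143, plus strand) holds the same box on the opposite strand, centred 49 bases before the start.
H2-D1: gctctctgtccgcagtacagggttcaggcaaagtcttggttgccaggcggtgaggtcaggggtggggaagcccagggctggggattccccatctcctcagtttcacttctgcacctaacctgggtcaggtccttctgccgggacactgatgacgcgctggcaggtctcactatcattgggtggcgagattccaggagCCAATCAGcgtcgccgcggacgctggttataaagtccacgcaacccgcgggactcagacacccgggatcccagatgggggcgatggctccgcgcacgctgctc
The Irf8 window (a transcription factor of the myeloid lineage, chr8:120736108-120736407, plus strand) holds 2 GAS matches, centred 167 and 149 bases before the start, and 1 Y box 120 bases before it.
Irf8: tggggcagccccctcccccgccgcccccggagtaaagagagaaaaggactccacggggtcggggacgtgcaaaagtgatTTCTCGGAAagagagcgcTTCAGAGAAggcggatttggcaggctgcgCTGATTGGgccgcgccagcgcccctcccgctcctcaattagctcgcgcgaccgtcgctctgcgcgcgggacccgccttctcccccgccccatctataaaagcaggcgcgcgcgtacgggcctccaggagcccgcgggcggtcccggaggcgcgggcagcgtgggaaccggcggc
The Isg15 window (a ubiquitin-like modifier, chr4:156200769-156201068, minus strand) holds 3 overlapping ISRE matches, centred 73, 67 and 61 bases before the start.
Isg15: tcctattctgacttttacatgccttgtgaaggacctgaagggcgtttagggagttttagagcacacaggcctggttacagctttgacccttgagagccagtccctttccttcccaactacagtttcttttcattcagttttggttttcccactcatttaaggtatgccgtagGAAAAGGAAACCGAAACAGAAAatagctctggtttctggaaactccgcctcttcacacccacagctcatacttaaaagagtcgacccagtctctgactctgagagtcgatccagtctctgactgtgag
Start regions were at hand for 27 members, as 33 windows, and not for Mx1, Mx2, Usp18, Tap2, H2-Ab1, Cd74 and Ciita. Among these genes an ISRE match was found in 12 of 20 interferon-stimulated genes, in 1 of 5 class I genes (B2m) and in 0 of 2 class II genes, against 3.44% of all 32851 windows. A Y box was found in both class II genes, in the class I genes H2-D1, H2-K1 and Tap1 and in Irf8, against 4.10% of windows. A GAS match was found in 6 of 20 interferon-stimulated genes (Bst2, Ifit2, Igtp, Irf1, Irf8 and Oas1a) and in none of the other members' windows, against 8.30% of windows.

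The libraries held between 28.3 M and 45.7 M read pairs (M, 1e6), the lowest being MKRN1-null adipose replicate 2. That library also stood apart by skeletal muscle transcripts. The 6 muscle markers summed to 68378 FPKM there, or 12.9% of its summed FPKM, and to between 28.6 and 189.9 FPKM in the other 3 adipose libraries. Mkrn1 itself was at 9.42 and 10.1 FPKM in WT liver and 2.86 and 2.21 FPKM in null liver, and at 16.8 and 19.3 FPKM against 4.58 and 2.90 FPKM in adipose tissue. It matched the labels in every library but was not at 0 in the null animals. The tissue labels matched their markers, with Alb between 33787 and 42772 FPKM in liver against 16.5 FPKM or less in adipose tissue, and Adipoq at 1666 FPKM or more in adipose tissue against 0.23 FPKM or less in liver. A gene entered the test of a tissue when 2 or more of its 4 libraries reached 1 FPKM, which 32 members met in liver and 33 in adipose tissue. Fold changes are on the log2(FPKM + 1) scale, null minus WT, with standard errors (SE) from limma and p adjusted over all tested genes by the Benjamini-Hochberg method. A call is an adjusted p under 0.05. A second criterion, named the study thresholds, asks for a limma p, before adjustment, no higher than 0.05 and a log2 fold change of at least 0.58 in size. The median log2 fold change over all tested genes was itself below 0, −0.17 over 10808 genes in liver and −0.20 over 12149 genes in adipose tissue, so each group is read beside it. Nothing in the sources says how the 2 animals of a group were housed or collected, so the p-values measure the spread between these libraries only.

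In WT animals the class I genes B2m, H2-K1 and H2-D1 were the most abundant members in both tissues. B2m, the invariant light chain of class I, stood at 1852 and 1855 FPKM in WT liver and at 3812 and 3849 FPKM in WT adipose tissue, where its mean ranked 6th of all genes. The heavy chains H2-K1 and H2-D1 followed, at 997.8 and 983 FPKM and at 448 and 430 FPKM in WT liver. The 5 class II genes were far higher in fat than in liver. Cd74 was at 155 and 141 FPKM in WT liver and at 909.8 and 924 FPKM in WT adipose tissue, a log2 difference of 2.63 ± 0.09 (SE, adipose minus liver), and H2-Aa (2.58 ± 0.10), H2-Ab1 (2.39 ± 0.09), H2-Eb1 (2.62 ± 0.08) and Ciita (1.16 ± 0.14) went the same way. All 5 class II genes and 5 of the 6 class I genes were called higher in adipose tissue, Tap1 being the exception, beside 62.3% of the 12782 genes tested between the tissues. Ciita was below 1 FPKM in both WT livers and passed the filter through its adipose libraries alone, so it had to differ. The interferon-stimulated genes were divided, with 7 called higher in adipose tissue and 6 called lower, beside 17.9% of all genes called lower. Gbp2, an interferon-inducible GTPase, was higher in adipose tissue by 2.59 ± 0.09 and Irf8 by 1.99 ± 0.15, whereas Oasl1 (−1.65 ± 0.12) and the tetherin gene Bst2 (−1.12 ± 0.11) were lower. The median over all genes was 0.59 in this comparison. The split of calls moved with the scaling, and with median-of-ratios or quantile scaling 14 members were lower in adipose tissue in place of 6. H2-K1 was higher in adipose tissue by 0.49 ± 0.10 but its difference was −0.24 after median-of-ratios scaling. The sample titles give a liver and a fat library of each genotype the same number, which may mark tissues of 1 mouse, although the labels do not say so. With that number as a replicate block 18 members were higher and 5 lower in adipose tissue, in place of 17 and 6.

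**Figure D1:**
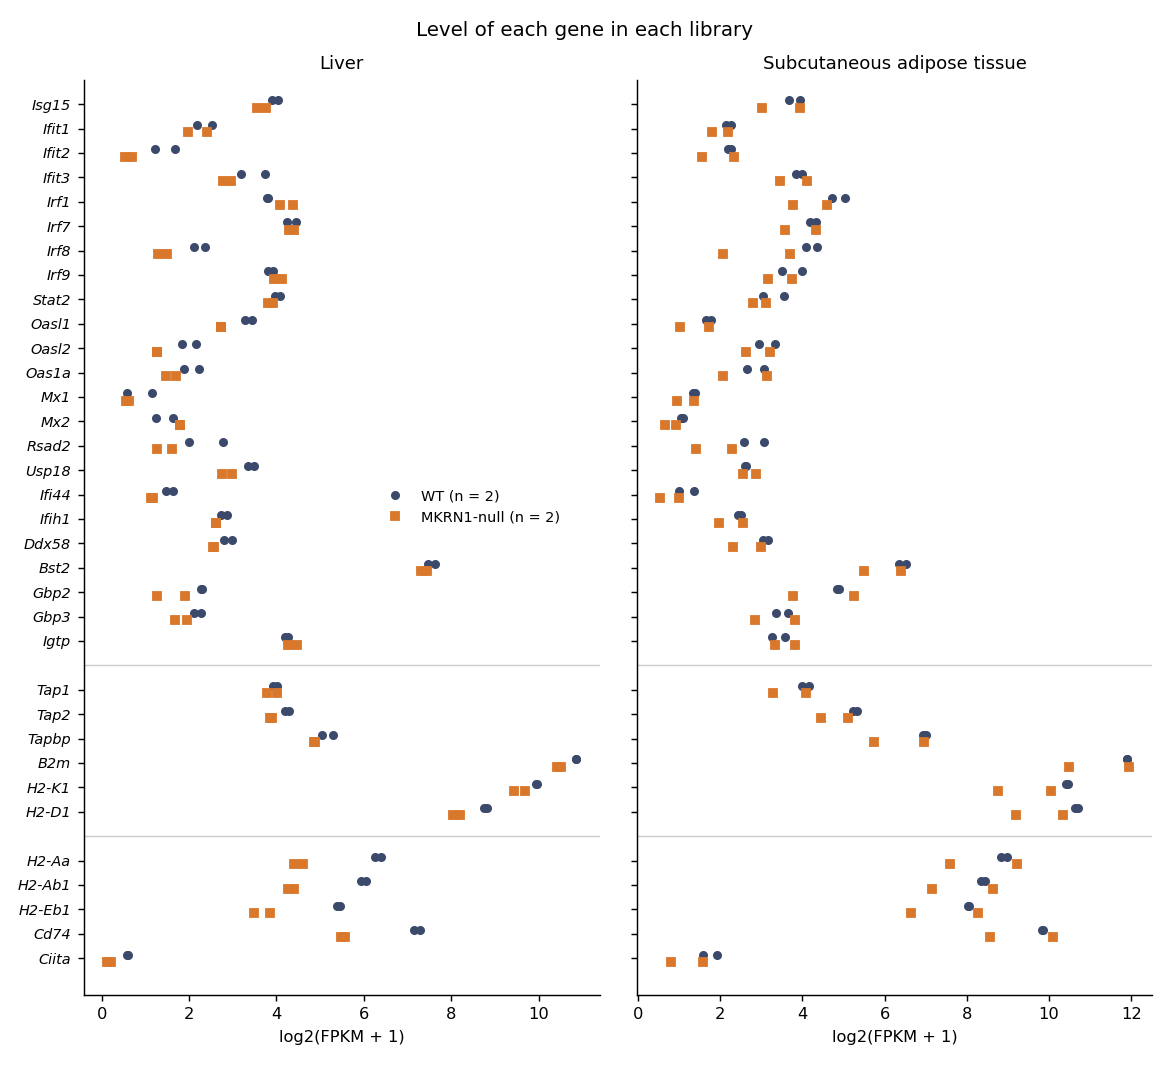
Level of the 34 genes in each of the 8 libraries, as log2(FPKM + 1), for liver (left) and subcutaneous adipose tissue (right), with a circle for each WT library and a square for each MKRN1-null library (2 per group), and the interferon-stimulated, class I and class II genes from top to bottom. In liver both null libraries lie left of both WT libraries for all 5 class II genes, whereas in adipose tissue the null libraries of these genes lie on either side of WT or at its lower edge.

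The class II genes showed the largest and most uniform difference of the list in null liver. H2-Aa was at 82.3 and 75.8 FPKM in WT liver and at 23.2 and 20.2 FPKM in null liver. H2-Ab1, the β chain that pairs with it, was at 65.4 and 60.4 FPKM against 19.98 and 18.2 FPKM. H2-Eb1 was at 43.1 and 40.7 FPKM against 13.4 and 10.1 FPKM. For each of the 3 chain genes the null libraries lay below both WT libraries with no overlap, and the null mean was 27.4%, 30.4% and 28.0% of the WT mean in that order. Cd74, the invariant chain, was at 155 and 141 FPKM in WT and at 46.6 and 43.8 FPKM in null liver, 30.6% of WT. The log2 fold changes were −1.82 ± 0.10 for H2-Aa (adjusted p = 0.00725), −1.67 ± 0.09 for H2-Ab1 (adjusted p = 0.00681), −1.76 ± 0.14 for H2-Eb1 (adjusted p = 0.0101) and −1.69 ± 0.09 for Cd74 (adjusted p = 0.00681). All 4 class II genes that were tested fell, beside 16.9% of all genes called lower in liver, and they stayed called when any one of the 4 liver libraries was left out. Ciita, the coactivator of this gene set, was too low to be tested. It stood at 0.518 and 0.495 FPKM in WT, from 87.0 and 104 read pairs, and at 0.154 and 0.0913 FPKM in null liver, from 27.2 and 16.7 read pairs, so that its null libraries too were below both WT libraries. In whole tissue fewer cells of a type and less RNA per cell cannot be told apart.

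The proportions among the class II genes differed far less than their levels. The ratio of Cd74 to H2-Ab1 was 2.37 and 2.33 in WT liver and 2.33 and 2.41 in null liver, and it was between 2.66 and 2.82 in the 4 adipose libraries. The ratio of H2-Aa to H2-Ab1 was 1.26 and 1.25 in WT liver, 1.16 and 1.11 in null liver and between 1.35 and 1.498 in adipose tissue. That of H2-Eb1 to H2-Ab1 was 0.659 and 0.673 in WT liver and 0.669 and 0.555 in null liver, replicate 2 being the lowest. The levels of the 2 annotated Cd74 transcripts were both lower in null liver, the longer one making up 29.5% and 30.3% of Cd74 FPKM in WT and 23.9% and 25.5% in null liver. Summed over the 5 genes, the class II pathway took 0.0645% and 0.0580% of all FPKM in WT liver and 0.0184% and 0.0166% in null liver. In adipose tissue its share was several times higher, at 0.411% and 0.413% in WT, and the null libraries lay on both sides of that, at 0.473% and 0.153%.

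**Figure D2:**
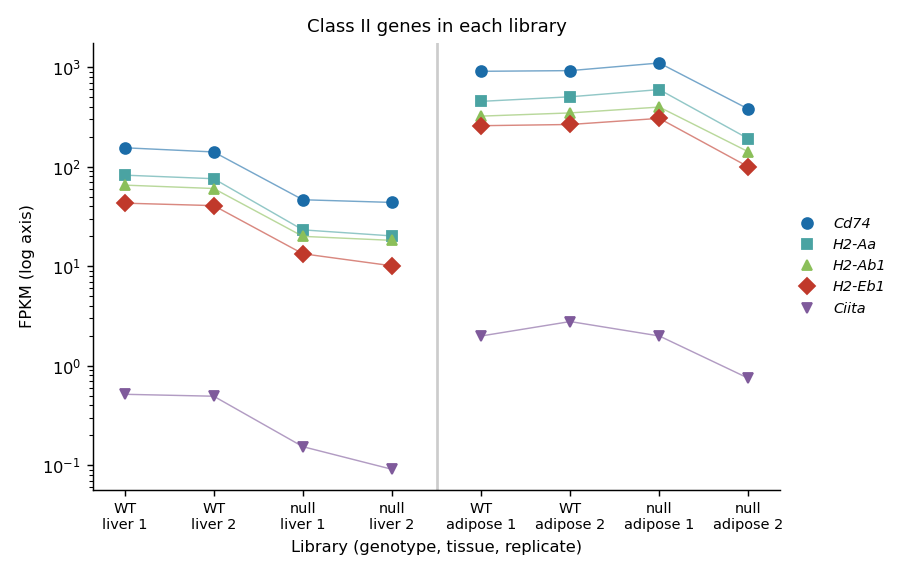
FPKM on a log axis of the 5 class II genes in each of the 8 libraries, 2 per genotype and tissue, with thin lines joining the libraries of a tissue only to guide the eye. The 5 genes run nearly in parallel, with Cd74 at 155 and 141 FPKM in WT liver against 46.6 and 43.8 FPKM in null liver, and with null adipose replicate 1 above and replicate 2 below the WT adipose libraries for Cd74 and the 3 chain genes.

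Several genes that process antigen for class II and that were not on the list were lower as well. Of 14 further class II pathway genes 9 were tested in liver. Of these 5 fell and 0 rose, beside 16.9% of all genes called lower and 2.52% called higher. Their median was −0.90, against −0.17 for all genes. Ctss, the cathepsin that trims the invariant chain, was at 44.4 and 37.8 FPKM in WT and at 13.0 and 13.6 FPKM in null liver (−1.55 ± 0.11, adjusted p = 0.0089). H2-DMb1, a chain of the peptide exchange factor DM, fell by 1.20 ± 0.10 on the log2 scale (adjusted p = 0.0106). The lysosomal protease gene Lgmn (−0.96 ± 0.20, adjusted p = 0.0399) and Ifi30, a lysosomal thiol reductase (−0.93 ± 0.17, adjusted p = 0.0311), fell as well.

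The class I genes differed less. H2-D1 was at 448 and 430 FPKM in WT and at 293 and 262 FPKM in null liver and fell by 0.66 ± 0.10 on the log2 scale (adjusted p = 0.0199). Tap2, a subunit of the peptide transporter, was at 18.5 and 17.2 FPKM against 13.8 and 13.4 FPKM (−0.37 ± 0.08, adjusted p = 0.0447). These were the only class I members called, 2 of 6 beside 16.9% of all genes called lower, and H2-D1 alone met the study thresholds, beside 13.4% of all genes lower by them. With so few genes neither count can be set apart from the share of all genes. B2m was at 1460 and 1362 FPKM in null liver against 1852 and 1855 FPKM in WT (−0.39 ± 0.10, adjusted p = 0.0512), and H2-K1 at 819 and 690 FPKM against 997.8 and 983 FPKM (−0.40 ± 0.12, adjusted p = 0.0732). Both missed the threshold although both null libraries lay below both WT libraries, an order that held for 5 of the 6 class I genes, for 16 of 22 interferon-stimulated genes, for all 4 class II genes tested and for 57.6% of all tested genes. Tapbp, encoding tapasin, was at 38.0 and 32.2 FPKM against 28.7 and 27.8 FPKM (−0.30 ± 0.11, adjusted p = 0.109). Tap1, the partner of TAP2, overlapped between the genotypes, at 14.1 and 15.1 FPKM in WT and 15.2 and 12.8 FPKM in null liver. The 2 calls did not hold up against the choice of libraries, since 0 class I members were called without WT replicate 1 or without either null library, and 1 without WT replicate 2. Heavy chain genes of the H2 region are close copies of each other, so reads may have been shared between them. With that limit, of 21 further class I genes 20 were tested, 4 fell and 0 rose, a share close to the 16.9% of all genes called lower. H2-Q1 was at 43.2 and 44.3 FPKM in WT and 14.1 and 11.6 FPKM in null liver (−1.70 ± 0.11, adjusted p = 0.0089). H2-Q10, a secreted class I molecule of the liver, was the most abundant of these named at 2073 and 2170 FPKM against 1532 and 1200 FPKM (−0.65 ± 0.15, adjusted p = 0.0449). The tapasin-related gene Tapbpl also fell (−0.55 ± 0.09, adjusted p = 0.0252), and H2-Q4 met the study thresholds only (−0.61 ± 0.16, adjusted p = 0.0582). Of 5 genes of the immunoproteasome, which cuts peptides for class I, all were tested and 0 were called, with a median of −0.01.

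Of the 23 interferon-stimulated genes 22 were tested in liver, and 5 fell while 0 rose, beside 16.9% of all genes called lower and 2.52% called higher, so their share was close to that of all genes. Irf8 was at 4.13 and 3.33 FPKM in WT and at 1.43 and 1.83 FPKM in null liver (−0.85 ± 0.14, adjusted p = 0.0247). Oasl1, an OAS-like protein that restrains Irf7 translation, was at 9.91 and 8.68 FPKM against 5.66 and 5.64 FPKM (−0.63 ± 0.10, adjusted p = 0.0229). Its neighbour Oasl2 was at 3.44 and 2.57 FPKM against 1.41 and 1.39 FPKM (−0.73 ± 0.14, adjusted p = 0.0308). In these 3 genes both null libraries lay below both WT libraries. Usp18, the protease that removes ISG15 from proteins, was at 10.2 and 9.13 FPKM against 6.95 and 5.72 FPKM (−0.54 ± 0.12, adjusted p = 0.0436). Ifit2, an RNA-binding antiviral protein, was at 2.19 and 1.34 FPKM against 0.611 and 0.436 FPKM (−0.85 ± 0.18, adjusted p = 0.0406), and it passed the filter through its WT libraries alone, so it had to differ. Without it 4 of 21 tested genes fell. The calls rested on which libraries entered, since 0 of the 22 were called without WT replicate 1 or without either null library and 6 without WT replicate 2.

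By the study thresholds 7 interferon-stimulated genes were lower in liver, beside 13.4% of all genes, and 0 were higher, beside 2.25%. Without Ifit2 there were 6 of 21. They were Irf8, Oasl1 and Oasl2 and, without an adjusted call, Rsad2, Ifit3 and Gbp2. Rsad2, which encodes the antiviral enzyme viperin, was at 5.80 and 3.01 FPKM in WT and 2.07 and 1.40 FPKM in null liver (−0.95 ± 0.29, adjusted p = 0.0779). Ifit3 was at 12.4 and 8.06 FPKM against 6.72 and 5.88 FPKM (−0.59 ± 0.21, adjusted p = 0.103). Gbp2 was at 3.80 and 3.89 FPKM against 2.75 and 1.41 FPKM (−0.69 ± 0.22, adjusted p = 0.0906). In Rsad2 and Ifit3 the WT libraries were themselves well apart, WT replicate 1 being the higher, and without it 2 members met these thresholds.

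The remaining interferon-stimulated genes did not pass either criterion in liver. Isg15 was at 13.9 and 15.5 FPKM in WT and 12.5 and 10.7 FPKM in null liver (−0.32 ± 0.11, adjusted p = 0.103). Null libraries were also below both WT libraries in 7 further genes, an order that held for 57.6% of all tested genes. The RNA synthetase gene Oas1a was at 3.70 and 2.68 FPKM against 1.77 and 2.23 FPKM and the GTPase gene Gbp3 at 3.85 and 3.35 FPKM against 2.90 and 2.22 FPKM. The RNA sensors Ddx58 (6.95 and 5.99 against 4.89 and 4.90 FPKM) and Ifih1 (6.31 and 5.61 against 5.12 and 5.13 FPKM), Ifi44 (2.10 and 1.78 against 1.25 and 1.17 FPKM) and Stat2 (14.7 and 15.9 against 13.1 and 14.2 FPKM) showed the same order. The last, Bst2, was the most abundant of the interferon-stimulated genes, at 177 and 196 FPKM in WT and 172 and 157 FPKM in null liver. In 4 genes the order was the other way round, both null libraries lying above both WT libraries, beside 11.8% of all genes. Irf1, an interferon-induced transcription factor, was at 13.0 and 12.8 FPKM in WT and 19.6 and 15.8 FPKM in null liver (0.42 ± 0.12, adjusted p = 0.0711). Mx2 was at 2.08 and 1.37 FPKM against 2.46 and 2.44 FPKM, Irf9 at 12.9 and 14.2 FPKM against 16.5 and 14.4 FPKM, and the immunity-related GTPase gene Igtp at 17.3 and 18.2 FPKM against 21.0 and 18.3 FPKM. Irf7, the master regulator of type I interferon genes, did not differ beyond the spread, at 20.8 and 17.8 FPKM in WT and 20.2 and 18.4 FPKM in null liver, and neither did Ifit1, at 4.79 and 3.51 FPKM against 4.32 and 2.93 FPKM. Mx1 was below the filter, at 1.21 and 0.493 FPKM against 0.535 and 0.474 FPKM.

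Side by side, the median log2 fold change in liver was −0.36 for the interferon-stimulated genes, −0.38 for the class I genes and −1.73 for the class II genes, against −0.17 for all genes. Median-of-ratios scaling shifted the all-gene median to 0.05 and left the medians of the groups at −0.15, −0.13 and −1.47, and quantile normalization shifted it to 0.03 with −0.13, −0.39 and −1.57. Calls in liver were lower in 87.1% of cases, against 57.1% with the median-of-ratios and 63.2% with the quantile method. Under both of these scalings the 4 class II genes remained called, and Irf1 was called higher, with a log2 fold change of 0.67 and 0.61.

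**Figure D3:**
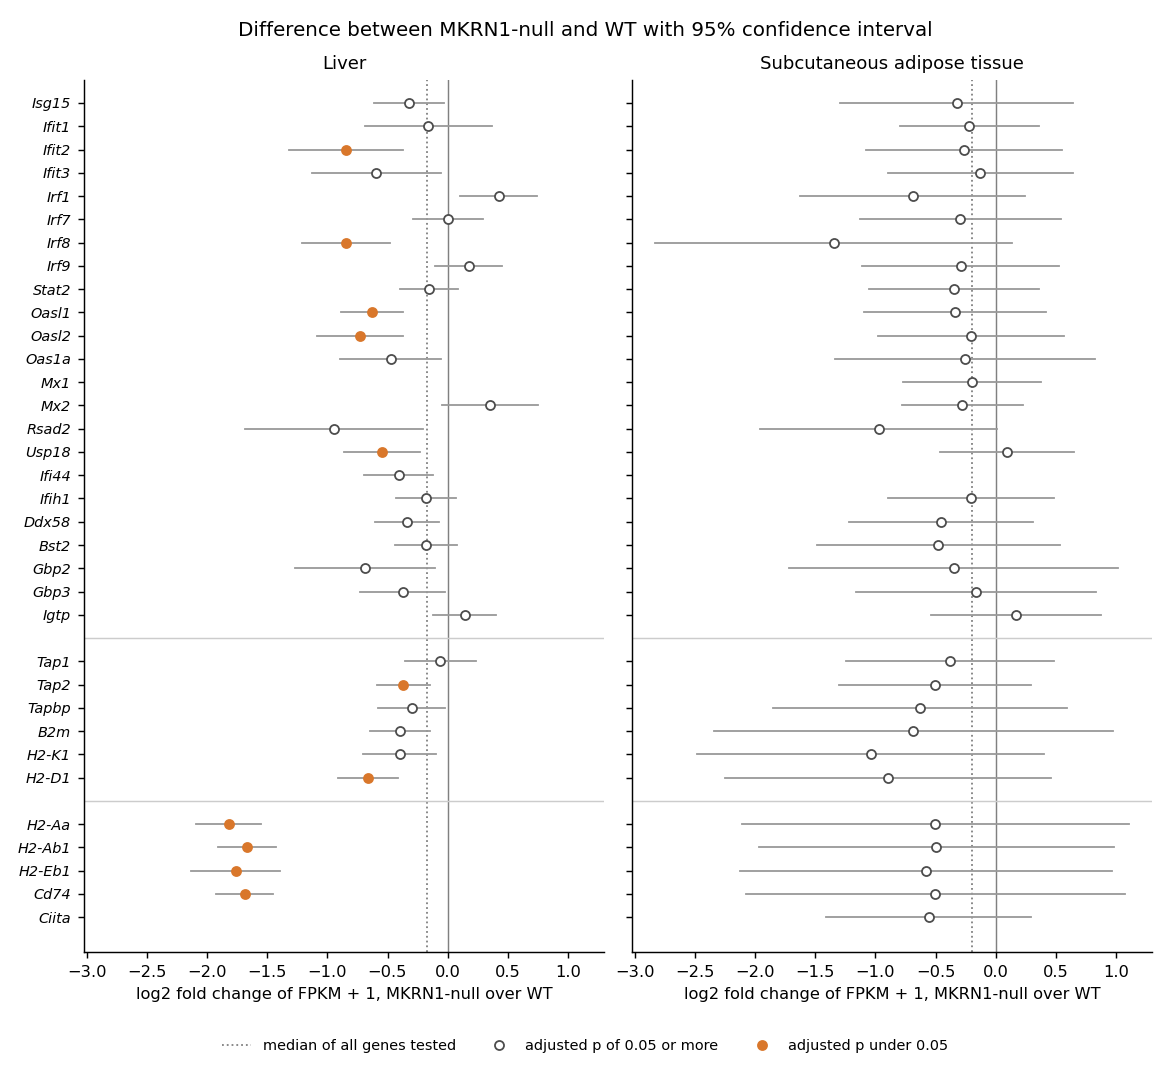
Log2 fold change of FPKM + 1, MKRN1-null over WT, with its 95% confidence interval from limma, in liver (left) and subcutaneous adipose tissue (right), from 2 libraries per genotype and tissue. Filled points have an adjusted p under 0.05 and the dotted line is the median of all tested genes, and the 4 class II genes tested in liver lie between −1.82 and −1.67, left of all other members, while no member is filled in adipose tissue.

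Upstream in the interferon pathway the liver data were mixed. The 10 interferon genes of the list were at 0.0511 FPKM or less in every liver library, and 0 of them were tested. All 5 genes of this list that passed the filter encode receptor chains. Of these 3 fell and 0 rose, beside 16.9% of all genes called lower and 2.52% called higher. Both chains of the interferon gamma receptor were among them, Ifngr1 at 12 and 10.5 FPKM in WT and 6.76 and 7.57 FPKM in null liver (−0.59 ± 0.11, adjusted p = 0.0300) and Ifngr2 at 14.0 and 12.4 FPKM against 9.48 and 7.45 FPKM (−0.59 ± 0.14, adjusted p = 0.0460). Il10rb, a receptor chain shared by interleukin 10 and interferon lambda, was the third (−0.97 ± 0.16, adjusted p = 0.0256). Of 13 signal transduction genes tested 2 fell and 2 rose, beside the same shares of all genes. The transcription factor gene Irf5 rose from 3.63 and 3.68 FPKM to 7.02 and 10.9 FPKM (1.07 ± 0.20, adjusted p = 0.0310), and Socs3, an inhibitor of JAK kinases, rose by 0.43 ± 0.09 (adjusted p = 0.0368). The phosphatase genes Ptpn6 (−0.41 ± 0.09, adjusted p = 0.0417) and Ptpn11 (−0.36 ± 0.08, adjusted p = 0.0469) fell. Of 11 nucleic acid sensing genes tested 2 fell and 0 rose, namely Sting1, the adaptor of DNA sensing, and the kinase gene Ikbke (−0.60 ± 0.10, adjusted p = 0.0240). Sting1 was at 2.10 and 1.92 FPKM in WT and 0.750 and 0.766 FPKM in null liver (−0.77 ± 0.10, adjusted p = 0.0173) and passed the filter through its WT libraries alone. Without it 1 of 10 tested sensing genes fell. The lower calls among the sensing and the signal transduction genes were close to the share of all genes. Of 62 other interferon-stimulated genes 53 were tested, 11 fell and 1 rose, with a median of −0.28. These shares were close to the 16.9% and 2.52% of all genes called lower and higher. One of the 11, Epsti1, passed the filter through its WT libraries alone. The gene that rose was Iigp1, an immunity-related GTPase, from 62.8 and 67.5 FPKM to 93.3 and 106 FPKM (0.61 ± 0.10, adjusted p = 0.0251), and it also met the study thresholds. The leading ones that were lower were Ifi27l2a at 16.7 and 14.8 FPKM against 6.90 and 7.16 FPKM (−1.06 ± 0.10, adjusted p = 0.0117), Tor3a (−0.95 ± 0.15, adjusted p = 0.0222), Cmpk2 (−0.92 ± 0.13, adjusted p = 0.0189) and, by the study thresholds only, the chemokine gene Cxcl10 (−1.05 ± 0.33, adjusted p = 0.0843).

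Markers of several cell types were lower in the same null livers. Markers of dendritic cells summed to 6.13 and 4.90 FPKM in WT and to 2.17 and 2.53 FPKM in null liver. Both null libraries were below both WT libraries for 6 of 8, beside 57.6% of all tested genes. Only 2 of the 8 passed the filter. Itgax, which encodes CD11c, was at 1.96 and 1.64 FPKM against 0.237 and 0.145 FPKM and passed it through its WT libraries alone. Clec9a (0.981 and 0.667 against 0.521 and 0.826 FPKM) and Xcr1 (0.121 and 0.132 against 0.164 and 0.124 FPKM) overlapped between the genotypes. Markers of macrophages and Kupffer cells summed to 195.7 and 104 FPKM in WT and 85.5 and 90.8 FPKM in null liver. Of these 4 of 9 were below both WT libraries, beside the same 57.6%. In 1 of them, Cd163, both null libraries were above both WT libraries (0.71 ± 0.29, adjusted p = 0.146), beside 11.8% of all tested genes. The 9 markers did not move as one. Their median log2 fold change was 0.04, against −0.17 for all genes, with 4 below 0 and 5 above. Calls were 2 lower and 0 higher. The sum leaned on Lyz2, the most abundant of the 9 in each liver library. Lyz2 (89.2 and 63.8 against 28.7 and 29.5 FPKM) and Cd68 (15.1 and 9.54 against 4.43 and 4.82 FPKM) were lower, whereas the Kupffer cell gene Clec4f was at 42.1 and 11.4 FPKM in WT and 24.8 and 29.3 FPKM in null liver. The 2 WT livers thus differed in Clec4f more than the genotypes did, although their class II genes were nearly equal. B cell markers summed to 5.26 and 3.24 FPKM in WT and to 1.99 and 2.73 FPKM in null liver. NK cell markers summed to 1.03 and 1.69 FPKM against 0.884 and 0.408 FPKM, so both sums were lower in both null libraries. Only 1 of 7 B cell markers and 0 of 5 NK cell markers passed the filter. Null libraries were below both WT libraries for 4 of 7 and 4 of 5 of them, beside the same 57.6%. T cell markers overlapped, at 1.71 and 3.18 FPKM against 2.38 and 1.91 FPKM. Neutrophil markers summed to 6.56 and 7.41 FPKM in WT and 4.23 and 4.42 FPKM in null liver, and plasma cell markers to 141 and 159.7 FPKM against 152.7 and 214 FPKM. The plasma cell sum was nearly all Sdc1 and Xbp1, and of these Sdc1 fell (−0.38 ± 0.09, adjusted p = 0.0472). Jchain rose from 0.790 and 0.456 FPKM to 2.52 and 2.30 FPKM (1.08 ± 0.14, adjusted p = 0.0173). It passed the filter through its null libraries alone. Markers of bile duct cells (9.91 and 8.18 against 3.33 and 2.41 FPKM) and of adipocytes (144.7 and 132 against 29.3 and 15.7 FPKM, nearly all from Cidec and Fabp4) were lower in both null libraries than in either WT library. The sums of endothelial markers overlapped, at 94.7 and 58.1 FPKM in WT and 47.3 and 61.0 FPKM in null liver. Clec4g, the most abundant of them, overlapped too, at 45.8 and 27.5 FPKM against 26.9 and 36.2 FPKM. For 5 of the 6 markers both null libraries lay below both WT libraries, beside 57.6% of all tested genes. The median log2 fold change of the 6 was −0.68, with 0 called and 4 lower by the study thresholds, beside 13.4% of all genes. Hepatocyte markers summed to 56848 and 50413 FPKM against 59545 and 60742 FPKM, and muscle markers stayed between 6.78 and 8.84 FPKM. No list had a marker at 0 in all 4 liver libraries. The part of these cell types in the differences of the list was not tested.

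**Figure D4:**
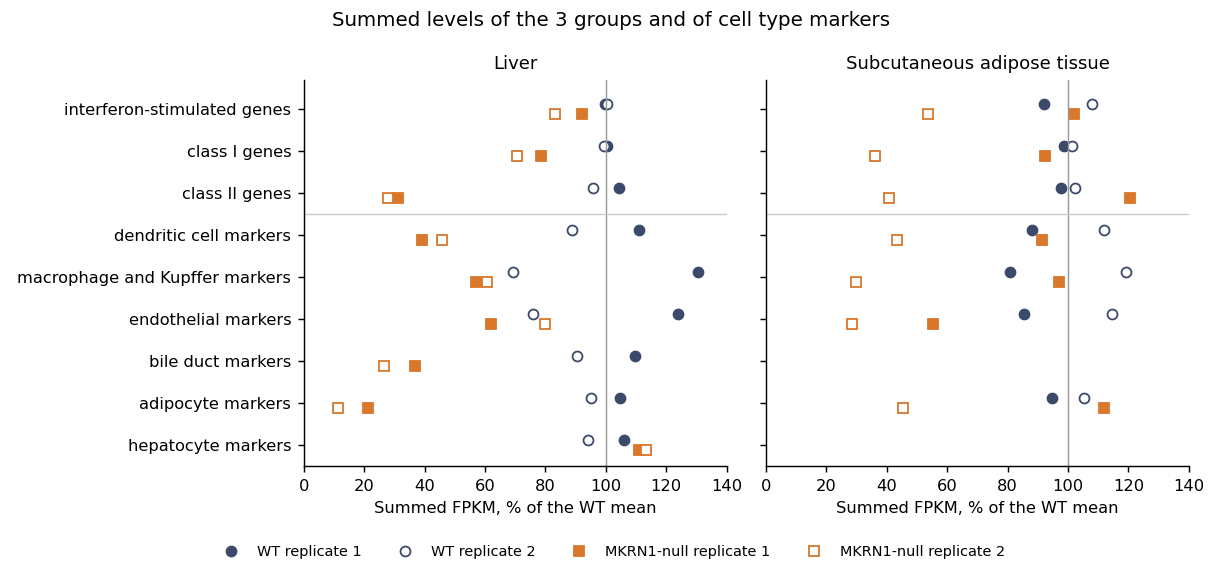
Summed FPKM of the 3 gene groups and of marker lists in each library, as a percentage of the WT mean of the same tissue, for liver (left) and subcutaneous adipose tissue (right), with filled symbols for replicate 1 and open symbols for replicate 2. In liver the class II genes stood at 31.1% and 27.8% of WT in the null libraries and the dendritic cell markers at 39.3% and 45.8%. In adipose tissue null replicate 2 was low in every list shown, the adipocyte markers at 45.5% included. Bile duct and hepatocyte markers are left out of the adipose panel. Muscle, B cell, plasma cell, T cell, NK cell and neutrophil markers are left out of both panels.

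In adipose tissue no member differed between the genotypes by either criterion. Adjusted calls were 0 of 33, beside 0% of all 12149 genes, and study threshold calls were 0 of 33, beside 5.35% of genes lower and 0.708% higher. At an unadjusted p under 0.05 there were also 0 members, against 783 genes in all. The 2 null libraries were far apart. H2-Aa was at 454 and 504 FPKM in WT, and at 596 FPKM in null replicate 1 and 191 FPKM in null replicate 2. H2-Ab1 was at 323 and 347 FPKM in WT against 398 and 141 FPKM in the null libraries, H2-Eb1 at 258 and 266 FPKM against 306 and 99.8 FPKM, and Cd74 at 909.8 and 924 FPKM against 1102 and 379.8 FPKM. For these 4 genes null replicate 1 was above both WT libraries and null replicate 2 below both, and Ciita was at 1.99 and 2.78 FPKM in WT against 1.99 and 0.749 FPKM. The log2 fold changes were −0.50 ± 0.62 for H2-Aa, −0.50 ± 0.56 for H2-Ab1, −0.58 ± 0.59 for H2-Eb1, −0.50 ± 0.60 for Cd74 and −0.56 ± 0.33 for Ciita, the adjusted p being 0.75 for H2-Aa. The 95% interval of the H2-Aa difference ran from −2.11 to 1.11 and so took in both 0 and the difference seen in liver.

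The class I genes were lower in both null adipose libraries for H2-K1, H2-D1 and Tap2. H2-K1 was at 1361 and 1421 FPKM in WT and at 1065 and 430 FPKM in the null libraries (−1.04 ± 0.55, adjusted p = 0.68). H2-D1 was at 1577 and 1659 FPKM against 1290 and 587 FPKM (−0.89 ± 0.52, adjusted p = 0.68). Tap2 was at 36.6 and 39.5 FPKM against 33.3 and 21.0 FPKM. B2m overlapped, at 3812 and 3849 FPKM in WT and 3949 and 1439 FPKM in the null libraries (−0.68 ± 0.64, adjusted p = 0.70), as did Tapbp (122 and 128 against 123 and 52.6 FPKM) and Tap1 (14.8 and 16.8 against 15.9 and 8.77 FPKM). Over the tested members both null libraries were below both WT libraries for 3 of 6 class I genes, 5 of 22 interferon-stimulated genes and 0 of 5 class II genes, beside 36.1% of all genes, and above both for none, beside 9.03%.

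Among the interferon-stimulated genes of adipose tissue Irf8, Rsad2 and Irf1 had the largest differences. Irf8 was at 16.1 and 19.4 FPKM in WT and 11.9 and 3.19 FPKM in the null libraries (−1.34 ± 0.57, adjusted p = 0.68). Rsad2 was at 4.94 and 7.399 FPKM against 3.90 and 1.65 FPKM (−0.97 ± 0.38, adjusted p = 0.68), and Irf1 at 25.2 and 32.0 FPKM against 23.2 and 12.7 FPKM (−0.69 ± 0.36, adjusted p = 0.68). In all 3 both null libraries lay below WT, replicate 2 being the lower. Mx2 (1.06 and 1.12 against 0.884 and 0.577 FPKM) and Ddx58 (7.20 and 7.99 against 6.93 and 3.94 FPKM) were the other 2 tested genes without overlap, and Ifi44 was below the filter, at 0.994 and 1.56 FPKM against 0.982 and 0.454 FPKM. The other 17 tested genes overlapped between the genotypes, in each case with null replicate 1 within or above the WT values and, for all but Igtp, with null replicate 2 below them. For example Isg15 was at 11.8 and 14.4 FPKM in WT and 14.4 and 7.11 FPKM in the null libraries, Bst2 at 80.0 and 91.3 FPKM against 84.0 and 44.4 FPKM and Gbp2 at 28.8 and 27.5 FPKM against 37.1 and 12.7 FPKM. Of the other lists, 4 of 58 tested interferon-stimulated genes met the study thresholds, all lower (Cxcl10 −1.25 ± 0.34, Cd274 −1.16 ± 0.35, Gbp9 −1.03 ± 0.35 and Helz2 −0.78 ± 0.22), and so did H2-Q7 (−1.02 ± 0.39) among 20 class I genes. Both shares were close to the 5.35% of all adipose genes that were lower by these thresholds. None of these named genes passed the adjusted threshold, and the lists of receptors, signal transduction, sensing, immunoproteasome and further class II genes held no gene past either criterion.

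Most of the adipose difference came with null replicate 2, the library with muscle transcripts. There 32 of the 33 tested members were below both WT libraries, beside 71.1% of all tested genes. In null replicate 1 only 8 members were below both, beside 44.8% of all genes, and 15 were above both, beside 30.2%. The summed level of null replicate 2 was 53.6% of the WT mean for the interferon-stimulated genes, 36.2% for the class I genes and 40.7% for the class II genes, and it was 45.5% for the adipocyte markers, 43.5% for the dendritic cell markers and 29.8% for the macrophage markers. In null replicate 1 the 3 groups were at 101.8%, 92.3% and 120.5% of the WT mean, the adipocyte markers at 112%, the dendritic cell markers at 91.3% and the macrophage markers at 96.9%. Endothelial (55.3% and 28.6%), T cell (46.8% and 12.6%), NK cell (70.0% and 19.3%) and neutrophil markers (53.6% and 15.5%) were below WT in both null libraries, B cell markers were at 138% and 24.4% and plasma cell markers at 103% and 78.7%, and the neutrophil marker Ly6g was at 0 in all 4 adipose libraries. Without null replicate 2 the group medians were 0.04, −0.10 and 0.25 and 0 members were called, whereas without null replicate 1 they were −0.65, −1.32 and −1.27 and 25 members were called, beside 51.7% of all genes. In each of these fits the lone null library was assumed to vary as the WT pair did. The part of muscle tissue in the values of replicate 2 was not tested.

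Whether the effect of genotype differed between the tissues was tested as an interaction over the 9905 genes, 31 members among them, that passed the filter in both. With all 8 libraries 0 members and 0% of all genes were called by limma, and 3 members and 766 genes had an unadjusted p under 0.05. With the number shared by a liver and a fat library as a replicate block 0 members were called as well. The 3 members with an unadjusted p under 0.05 were Irf1, whose effect was lower in adipose tissue than in liver by 1.11 ± 0.40 on the log2 scale (adjusted p = 0.587), Mx2 (−0.63 ± 0.23) and Usp18 (0.64 ± 0.23). For H2-Aa the effect was higher in adipose tissue by 1.32 ± 0.67 (adjusted p = 0.73), for H2-Ab1 by 1.17 ± 0.61, for H2-Eb1 by 1.18 ± 0.67 and for Cd74 by 1.19 ± 0.63. The outcome turned on 1 library. Without null adipose replicate 2 these 4 genes were the only members called, at 2.14 ± 0.17 for H2-Aa (adjusted p = 0.0109), 1.92 ± 0.14 for H2-Ab1 (adjusted p = 0.0106), 1.99 ± 0.20 for H2-Eb1 (adjusted p = 0.0174) and 1.95 ± 0.14 for Cd74 (adjusted p = 0.0100), beside 3.15% of all genes. Without null adipose replicate 1 it was 10 other members that were called (B2m, Bst2, H2-D1, H2-K1, Irf1, Irf7, Irf8, Mx2, Tap1 and Tapbp), each lower in adipose tissue, beside 26.7% of all genes. With 1 null adipose library left in these fits, its spread was taken from the other groups. Over all alternatives the adjusted p of the 4 class II genes lay between 0.01 and 0.9998.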

How the data were processed

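Liver and subcutaneous adipose tissue of WT and MKRN1-null mice were measured in 8 poly(A) libraries. The deposited files hold FPKM, TPM and coverage of 36780 RefSeq transcripts, which the authors estimated on mm10 with StringTie 1.3.3b after HISAT2 and SAMtools (versions not given in the sources used here). Another aligner and counter are named in the published methods. The deposited FPKM are scaled to each library's depth only, with no further normalization.

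FPKM was summed per symbol (70 of 24532 gene IDs had no symbol), and log2(FPKM + 1) was fitted with limma 3.58.1 in R 4.3.3 (variance trend) per tissue. Adjusted p covers all tested genes. Read pairs were computed from coverage and set the precision of low genes. Python 3.11.15 made tables and figures. The fit was also run on simulated data with the same spread in every library and no shift of all genes. The real libraries differ from that setting, so it says little about the fit to them. The 34 genes and the lists were chosen with earlier results of these data known. All 34 genes, up to 4 genes of each other list past either criterion, and Mkrn1 were named, and a few marker genes, Iigp1 and Epsti1 were named after their values were seen. Rnf213 and Trac were not found among the symbols. Alternatives were another pseudocount, TPM, filters, scalings, no variance trend, a replicate block, 1 library left out, all libraries in 1 fit and the procedure of the paper. That procedure covers the paper's permutation tests only, applied here to log2(FPKM + 1) without further scaling. The paper itself used log2 read counts with trimmed mean of M-values normalization.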

Additional observations from a re-analysis of the deposited data

How the results depend on the processing

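The 4 class II calls in liver held under every alternative but 1, the fit of all 8 libraries together, which called 0 (adjusted p between 0.119 and 0.125, against 0.00517 as the lowest of any alternative). The other liver counts moved. Interferon-stimulated genes called lower (5) were 2 with no filter, 2 with a filter at FPKM 5 (12 tested), 1 after median-of-ratios scaling, 0 after quantile normalization, 0 in the fit of all 8 libraries and between 0 and 6 when 1 library was left out. By the study thresholds (7) they were 2, 3, 1 and 4 with the FPKM 5 filter, median-of-ratios scaling, quantile normalization and all 8 libraries, and between 2 and 8 with 1 library left out. Class I genes called lower (2) were 4 with TPM, 1 with no filter, 0 after median-of-ratios scaling, 1 with the replicate block, 0 with all 8 libraries and between 0 and 1 with 1 library left out. By the study thresholds (1) they were 0, 3 and 0 after median-of-ratios scaling, quantile normalization and with all 8 libraries. Members called higher in liver (0) were 1 after either scaling, Irf1. The causes were not tested.

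In adipose tissue the replicate block called 1 member, Irf8 (adjusted p = 0.027, and 0.00406 to 0.9999 over its alternatives), and 2 by the study thresholds. Within a tissue the numbers pair nothing in the labels, and same-numbered WT and null libraries deviated together with r = 0.006 across genes in liver and 0.114 in adipose tissue. Across tissues the shared number in the titles may mark 1 mouse, which nothing states, and liver and fat libraries of 1 number deviated together with r = 0.075 in WT and 0.092 in null animals. The replicate block over these pairs called 0 members in the interaction, and 18 higher and 5 lower between WT tissues (17 and 6 without it). Study threshold calls (0) were also 1 with TPM, 5 with all 8 libraries, 4 by the procedure of the paper and between 0 and 23 with 1 library left out, and adjusted calls between 0 and 25. Interaction calls (0) were between 0 and 10. Members called lower in WT adipose tissue than in WT liver (6) were 14 after either scaling and between 3 and 6 with 1 library left out. Among the fold changes given, directions turned only in adipose tissue when 1 library was left out, between −1.41 and 0.044 for B2m, −1.32 and 0.32 for H2-Aa, −1.24 and 0.25 for H2-Ab1, −1.38 and 0.22 for H2-Eb1 and −1.27 and 0.27 for Cd74, and for H2-K1 between WT tissues (−0.24, median-of-ratios scaling). With 2 libraries a group, differences near the median shift of all genes cannot be resolved, and genes near 1 FPKM rest on few read pairs.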
